A study of Mus musculus with 9 samples.

Results

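The nuclear pore and nuclear transport genes were described in subcutaneous tumours of mice given digoxin or vehicle. They were chosen by name alone: every gene whose symbol starts as a nucleoporin (Nup with a number), a numbered importin (Ipo), an exportin (Xpo), a karyopherin (Kpna, Kpnb) or a transportin (Tnpo), and in addition Ran, Rangap1, Ranbp1, Ranbp2, Rcc1, Tpr, Pom121, Ndc1, Seh1l, Sec13, Rae1 and Aaas. This gave 58 of the 35321 genes in the deposited table. Of these, 53 reached 1 FPKM (fragments scaled by transcript length and library depth) in at least 3 of the 9 samples and were tested, among 13687 tested genes in all. The 5 below that level were Kpna7, Nup210, Nup210l, Nup50l and Nup58.

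All 9 samples were tumours of LLC cells (Lewis lung carcinoma, a line of C57BL/6 origin) injected under the skin of the right flank of male C57BL/6 mice that were 4 to 5 weeks old. Treatment by intraperitoneal injection began 5 days later, with digoxin at 0.1 mg/kg (the low dose), with digoxin at 1 mg/kg (the high dose) or with PBS as vehicle, 3 samples each. Digoxin belongs to the cardiac glycosides, which block the sodium and potassium pump of the cell membrane. Whether each sample was its own mouse is not stated in the labels, and p-values thus measure the spread between samples only, which may be technical. The tumours were bulk tissue, in which fewer cells of a type and less RNA per cell cannot be told apart.

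The nuclear pore complex is a ring-shaped assembly of nucleoporins that spans the nuclear envelope, with cytoplasmic filaments on one face and a basket on the other. Large cargo crosses it bound to importins or exportins, and the small GTPase Ran gives the direction. Ran is bound to GTP inside the nucleus, where Rcc1 loads it, and to GDP outside, where Rangap1 and its cofactors Ranbp1 and Ranbp2 trigger hydrolysis.

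The depth behind the FPKM values, recovered from their spacing, lay between 42870997 and 43319883 reads at the low dose and between 40517062 and 42252370 at the high dose, against 48649867 to 51810956 with vehicle. The tested members had 36 (Kpna2rt) to 32352 (Kpnb1) reads in a library, with a median of 4314, and every one except Kpna2rt had at least 970 reads (Ipo11) in each library. On the first principal component of all tested genes, with 69.4% of the variance, low-dose sample 2 and high-dose sample 1 lay between the other digoxin libraries and the vehicle libraries. Krt8 and Krt18, the paired keratins of simple epithelia, did not move together: Krt8 was higher at both doses, at 58.7 to 105 FPKM at the low dose and 103 to 126 FPKM at the high dose against 1.7 to 4.13 FPKM with vehicle, and Krt18 was lower, at 0.932 to 16.8 FPKM at the low dose and 1.03 to 8.84 FPKM at the high dose against 43.1 to 63.0 FPKM with vehicle. The lung lineage markers Nkx2-1 and Sftpb stayed below 0.1 FPKM in every sample. The third, Sftpc, had 0.0901 to 0.179 FPKM at the low dose and 0.119 to 0.16 FPKM at the high dose, against 0 to 0.0795 FPKM with vehicle, too low to be tested.

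Most of the genes fell at both doses. At the low dose, limma called 40 of the 53 tested members lower (75.5%) and 3 higher at an adjusted p under 0.05, while 20.7% of all tested genes were called lower and 21.6% higher. At the high dose it called 36 lower (67.9%) and 1 higher, against 25.2% of all tested genes lower and 20.7% higher. The lower calls at each dose include Kpna2rt, which passed the expression filter only through its vehicle values. The members were well expressed, with a median vehicle mean of 21.5 FPKM against 6.8 FPKM over all tested genes, and among tested genes that averaged at least 5 FPKM the lower calls made up 23.8% at the low dose and 28% at the high dose. The median log2 fold change of FPKM + 1 was −0.39 at the low dose and −0.38 at the high dose over the 53 members, and 0.02 and −0.04 over all tested genes. On this scale the change of genes with low values is understated. No member changed as much as 2-fold on it. The 2 comparisons share the vehicle samples.

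The same 36 genes made up all the lower calls at the high dose and most of those at the low dose. Kpna1, Ndc1, Seh1l and Tpr were called lower only at the low dose, though Ndc1 and Tpr also passed at the high dose with rescaling to TPM (limma adjusted p = 0.0237 and 0.0306). Rae1 was higher at both doses, and Ipo4 and Ranbp1 were called higher only at the low dose. The 10 genes called in neither comparison were Aaas, Kpna4, Nup133, Nup155, Nup35, Nup50, Nup62, Nup98, Sec13 and Xpo6; with rescaling to TPM, Kpna4, Nup133 and Nup35 passed as lower at the low dose (limma adjusted p = 0.046, 0.0297 and 0.032) and Sec13 at the high dose (0.0134). The 3 digoxin values lay below all 3 vehicle values in 42 members at the low dose and in 40 at the high dose, where 27.9% and 33.1% of all tested genes did so. They lay above them in 3 members at the low dose and in 4 at the high dose, against 32.3% and 25.2% of all tested genes.

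Between the doses no member was called by limma (smallest adjusted p = 0.176, Ranbp1). Of all tested genes 2 were called, both lower at the high dose (0.0146%), and limma-voom on recovered reads also called 0 members. The count over all genes depends on the libraries that lay between the groups: it was 11 higher and 122 lower at the high dose without low-dose sample 2, and 131 higher and 334 lower without both that library and high-dose sample 1, while 0 members were called in either fit. At an unadjusted p under 0.05 there were 5 of 53 members, against 13.6% of all tested genes. The median log2 difference of the members, high minus low dose, was 0.04, with a range of −0.31 to 0.36. The values of the doses did not overlap in 8 members that were higher and 4 that were lower at the high dose, where 6.05% and 11% of all tested genes did so. The calls made at one dose alone are therefore not shown to differ between the doses.

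**Figure D1:**
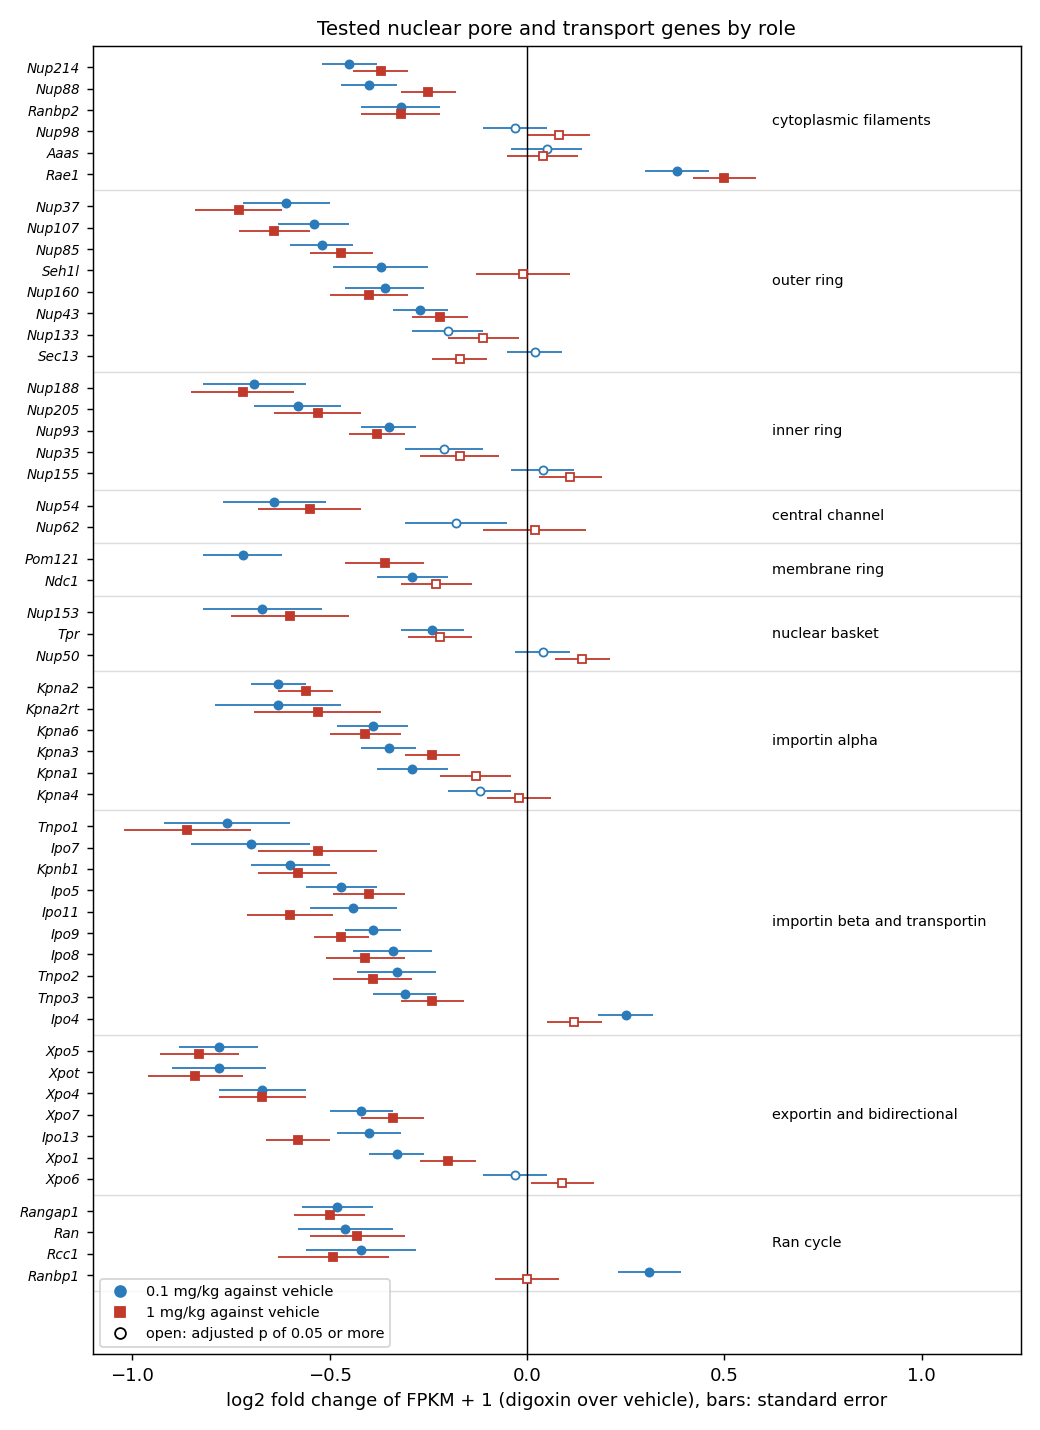
Log2 fold change of FPKM + 1 for the 53 tested genes, grouped by place in the pore or role in transport, with circles for 0.1 mg/kg and squares for 1 mg/kg against vehicle and bars for the standard error. Filled symbols passed a limma adjusted p of 0.05: 40 lower and 3 higher at the low dose, and 36 lower and 1 higher at the high dose.

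Seen library by library, the shift ran through the set. Each gene was set against its own vehicle mean. The median over the 53 tested genes was 72.7%, 78.4% and 71.4% in the low-dose samples and 81.5%, 71.7% and 74.5% in the high-dose samples, against 99.4%, 99.6% and 100.3% in the vehicle samples. In each of the 6 digoxin libraries, between 41 and 45 of the 53 genes lay below every vehicle value. The share of all tested genes that did so in a single library was not counted. The summed FPKM of all 58 genes was 1097, 1189 and 1071 at the low dose and 1206, 1075 and 1127 at the high dose, below each of the vehicle sums of 1463, 1420.0 and 1431. The libraries between the groups on the principal component were also the closest to vehicle here by median and by sum. By genes below every vehicle value, high-dose sample 1 had 41 against 45 and 44 in its group. Low-dose sample 2 had 45 by that measure, against 44 and 44, so it was not the closest. Low-dose sample 2 and high-dose sample 1 each held the highest value of their own group for 35 of the 53 genes. That count was not made over all tested genes either. Without both of these libraries, a choice made after seeing the data, limma called 41 members lower and 3 higher at the low dose, and 40 lower and 1 higher at the high dose. The calls over all 13687 tested genes grew more under that choice, to 4053 lower and 4371 higher at the low dose and 4094 lower and 4298 higher at the high dose, against 2829 lower and 2952 higher and 3444 lower and 2833 higher with every library.

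**Figure D2:**
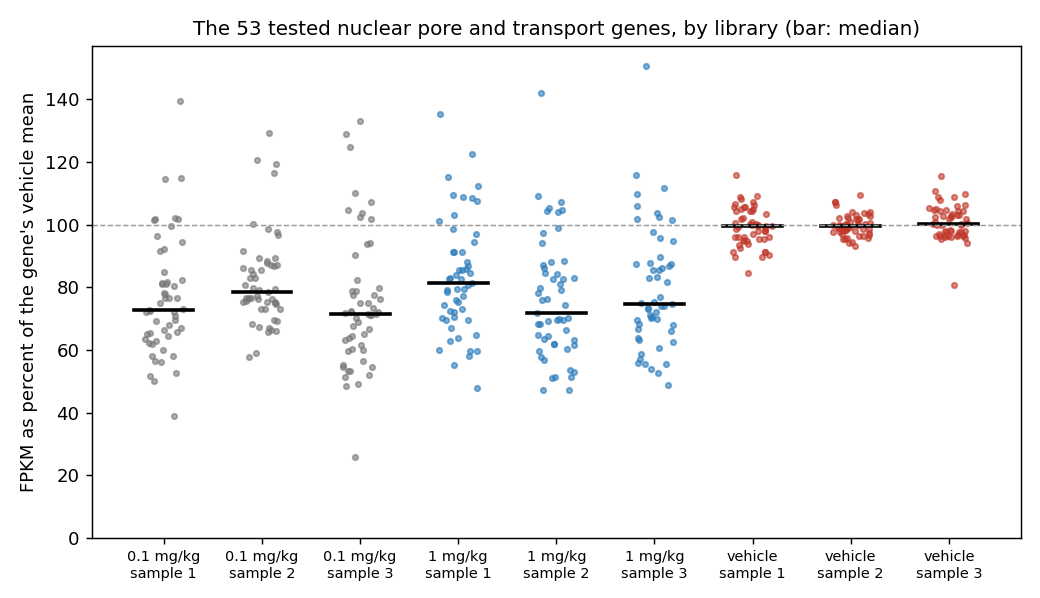
FPKM of each of the 53 tested genes as a percentage of that gene's vehicle mean, 1 point per gene, in each of the 9 libraries, with a bar at the median. The colours differ from those of the other figures: low-dose points are grey, high-dose points blue and vehicle points red. The medians lie between 71.4% and 81.5% in the digoxin libraries and at 99.4% to 100.3% in the vehicle libraries, and single genes reach 151% (in high-dose sample 3) and 25.7% (in low-dose sample 3) of their vehicle mean.

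Promoters of 4 genes that the results turn on are printed to show the starts of a Ran cycle gene, a scaffold gene and an importin that fell, and of the gene that was higher at both doses. RefSeq promoter windows on build GRCm38.p6, from 250 bases before to 50 bases after the gene start, were found for 45 of the 58 members. They are written 5′ to 3′ on the strand of the gene. Capitals mark matches on either strand to the E-box CACGTG, the CCAAT box CCAAT, the ETS core CCGGAAG and the NRF1 core (GCGC, any base, then TGCGC). A match describes letters only and is not a bound site.
Ran (chr5:129019906-129020205, forward strand): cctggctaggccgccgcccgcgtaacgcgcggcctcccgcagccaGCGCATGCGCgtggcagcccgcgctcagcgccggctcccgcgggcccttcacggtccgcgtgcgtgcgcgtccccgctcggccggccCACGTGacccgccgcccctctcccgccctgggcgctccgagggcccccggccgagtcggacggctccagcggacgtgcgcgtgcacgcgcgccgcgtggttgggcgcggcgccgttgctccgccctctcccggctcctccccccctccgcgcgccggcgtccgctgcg
Nup188 (chr2:30286166-30286465, forward strand): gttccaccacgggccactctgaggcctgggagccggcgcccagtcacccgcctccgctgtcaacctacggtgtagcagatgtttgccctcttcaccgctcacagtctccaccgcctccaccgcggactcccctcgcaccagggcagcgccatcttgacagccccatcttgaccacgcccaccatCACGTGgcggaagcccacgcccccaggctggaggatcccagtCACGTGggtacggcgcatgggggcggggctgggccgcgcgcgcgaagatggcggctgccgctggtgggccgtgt
Kpnb1 (chr11:97187843-97188142, reverse strand): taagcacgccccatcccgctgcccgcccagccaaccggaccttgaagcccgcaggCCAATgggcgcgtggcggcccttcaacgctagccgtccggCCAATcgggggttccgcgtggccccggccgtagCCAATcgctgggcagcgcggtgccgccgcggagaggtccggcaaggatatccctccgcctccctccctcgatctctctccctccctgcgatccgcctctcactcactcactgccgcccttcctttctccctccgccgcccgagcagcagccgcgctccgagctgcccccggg
Rae1 (chr2:172999867-173000166, forward strand): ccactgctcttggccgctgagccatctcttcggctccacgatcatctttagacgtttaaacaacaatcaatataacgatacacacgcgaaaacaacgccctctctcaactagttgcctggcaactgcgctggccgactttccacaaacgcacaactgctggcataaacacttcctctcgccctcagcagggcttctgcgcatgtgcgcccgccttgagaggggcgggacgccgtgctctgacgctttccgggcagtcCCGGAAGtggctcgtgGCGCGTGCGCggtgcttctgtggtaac

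In the Ran promoter an NRF1 core starts 205 bases and an E-box 118 bases before the gene start. Nup188 has E-boxes at 66 and 24 bases before the start, and Kpnb1 has CCAAT boxes at 195, 155 and 122 bases before it. In Rae1 an ETS core and an NRF1 core lie 8 and 24 bases after the start. The E-box was found in 9 of the 45 member promoters (20.0%), in 11.6% of 9492 promoters of tested genes and in 8.1% of all 27025 promoters. The 9 genes were Ran, Ranbp2, Nup54, Nup93, Nup188, Ipo7, Tnpo2, Xpot and Ipo4. All but Ipo4 were called lower at both doses, and Ipo4 was called higher at the low dose. Of all 45 members with a promoter, 29 were called lower at both doses. The shares of the other motifs were closer. The CCAAT box was in 46.7% of member promoters and 43.1% of those of tested genes, the ETS core in 20.0% and 20.5%, the NRF1 core in 15.6% and 11.3%, the GC box GGGCGG in 71.1% and 67.9%, the E2F motif TTCCCGCC in 6.7% and 4.8%, and the TATA motif TATAAA in 11.1% and 9.0%. Called lower at both doses were 12 of the 21 members with a CCAAT box, 4 of 9 with an ETS core and 4 of 7 with an NRF1 core. So were 19 of 32 with a GC box, 0 of 3 with an E2F motif and 5 of 5 with a TATA motif. No test was made of these shares, and the motifs can overlap one another.

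The Ran cycle split: the GTPase, its activator and its exchange factor fell at both doses, and the cofactor Ranbp1 did not. Ran had 161, 186 and 143 FPKM at the low dose and 188, 149 and 162 FPKM at the high dose, against 243, 211 and 217 FPKM with vehicle. It was the most abundant member, and all 6 digoxin values lay below all vehicle values. Its log2 fold changes were −0.46 (SE 0.12, limma adjusted p = 0.0178) at the low dose and −0.43 (SE 0.12, limma adjusted p = 0.0202) at the high dose. Rangap1 had 27.3, 31.9 and 29.8 FPKM at the low dose and 31.1, 27.2 and 29.6 FPKM at the high dose, against 45.8, 40.5 and 39.5 FPKM with vehicle. Rangap1, which makes Ran hydrolyse its GTP at the cytoplasmic face, showed no overlap with vehicle at either dose, with log2 fold changes of −0.48 (SE 0.09, limma adjusted p = 0.00455) at the low dose and −0.50 (SE 0.09, limma adjusted p = 0.00327) at the high dose. Rcc1, the chromatin-bound exchange factor, fell by 0.42 at the low dose and by 0.49 at the high dose on the log2 scale. The calls of Ran and Rcc1 were lost in some fits with 1 library left out. In those fits the lower calls over all tested genes also fell in number. For Ran, leaving out 1 library at a time lost the call at the low dose in 3 of 9 fits (without low-dose sample 1 or 3, or vehicle sample 1; limma adjusted p = 0.0524 to 0.0673), and at the high dose in 4 of 9 fits (without high-dose sample 2 or 3, or vehicle sample 1 or 3; limma adjusted p = 0.0516 to 0.0711). For Rcc1 it lost the call at the low dose in 6 of 9 fits (without low-dose sample 1 or 3, or high-dose sample 3, or vehicle sample 1, 2 or 3; limma adjusted p = 0.0522 to 0.125), and at the high dose in 4 of 9 fits (without high-dose sample 2 or 3, or vehicle sample 1 or 2; limma adjusted p = 0.0512 to 0.0628).

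Ranbp1 binds Ran-GTP and helps Rangap1 act on it. Ranbp1 had 59.8, 67.4 and 67.3 FPKM at the low dose and 47.7, 54.7 and 54.1 FPKM at the high dose, against 54.4, 52.1 and 50.1 FPKM with vehicle. All 3 values at the low dose exceeded every vehicle value, and those at the high dose overlapped vehicle. Its log2 fold changes were 0.31 (SE 0.08, limma adjusted p = 0.0182) at the low dose and 0.00 (SE 0.08, limma adjusted p = 0.979) at the high dose. The call at the low dose was lost with 1 library left out in 3 of 9 fits (without low-dose sample 3, or vehicle sample 2 or 3; limma adjusted p = 0.0587 to 0.0724), and was also lost with rescaling to TPM. The ratio of Ran to Ranbp1 FPKM was 2.69, 2.75 and 2.12 at the low dose and 3.93, 2.72 and 2.99 at the high dose, below the vehicle ratios of 4.47, 4.06 and 4.32 in all 6 libraries. With 3 against 3 samples an exact permutation test cannot go below p = 0.10, so this ratio was not tested further.

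**Figure D3:**
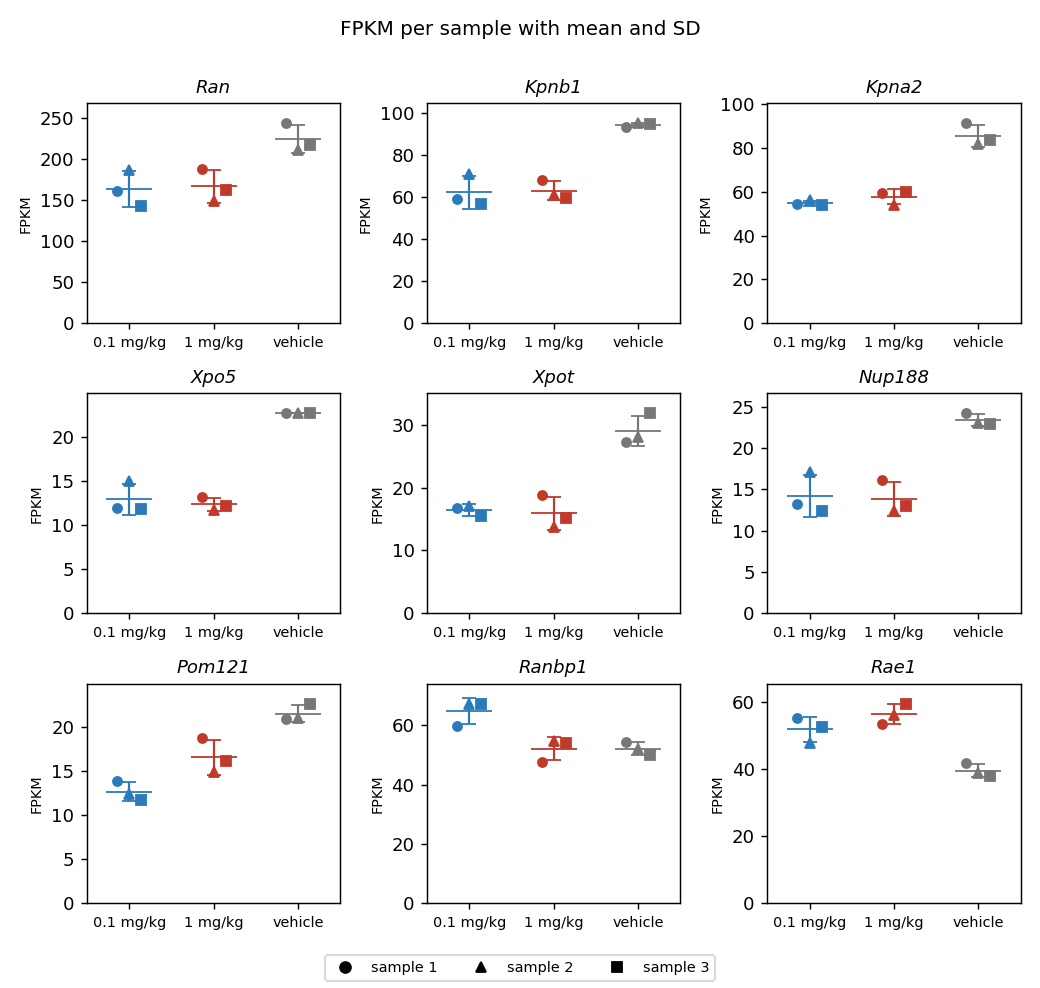
FPKM of 9 genes in each of the 3 low-dose (0.1 mg/kg), 3 high-dose (1 mg/kg) and 3 vehicle samples, with the mean as a long bar and the SD as an error bar, and a symbol for each sample number. Ran, Kpnb1, Kpna2, Xpo5, Xpot, Nup188 and Pom121 lie below vehicle in all 6 digoxin samples, Rae1 lies above it in all 6, and Ranbp1 lies above it only at the low dose.

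Importin alpha adaptors recognise the classical nuclear localisation signal and hand cargo to Kpnb1. Of these, 5 of 6 tested genes fell at the low dose and 4 of 6 at the high dose. Both counts include Kpna2rt, which was tested only because of its vehicle values. Kpna2 had 54.2, 56.0 and 53.9 FPKM at the low dose and 59.4, 53.8 and 60.0 FPKM at the high dose, against 91.2, 81.6 and 83.6 FPKM with vehicle. Kpna2, the most abundant adaptor, was below vehicle in all 6 digoxin samples, with log2 fold changes of −0.63 (SE 0.07, limma adjusted p = 0.000792) at the low dose and −0.56 (SE 0.07, limma adjusted p = 0.00103) at the high dose. Kpna3 had 21.0, 20.5 and 22.5 FPKM at the low dose and 22.1, 23.1 and 24.0 FPKM at the high dose, against 27.1, 27.1 and 28.1 FPKM with vehicle. Its digoxin values also did not overlap vehicle, with log2 fold changes of −0.35 (SE 0.07, limma adjusted p = 0.00501) at the low dose and −0.24 (SE 0.07, limma adjusted p = 0.0186) at the high dose. Kpna6 had 10.7, 12.9 and 10.4 FPKM at the low dose and 12.0, 11.2 and 10.3 FPKM at the high dose, against 15.1, 15.0 and 15.1 FPKM with vehicle. The vehicle values of Kpna6 were nearly identical, and its log2 fold changes were −0.39 (SE 0.09, limma adjusted p = 0.012) at the low dose and −0.41 (SE 0.09, limma adjusted p = 0.00896) at the high dose. The call of Kpna3 at the high dose was lost with 1 library left out in 3 of 9 fits (without high-dose sample 2, or vehicle sample 2 or 3; limma adjusted p = 0.0506 to 0.0735).

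The remaining adaptors differed. Kpna1, another importin alpha, fell at the low dose (log2 −0.29) and had a log2 fold change of −0.13 at the high dose that did not pass. Its call at the low dose was lost with 1 library left out in 5 of 9 fits (without low-dose sample 1 or 3, or vehicle sample 1, 2 or 3; limma adjusted p = 0.0592 to 0.0944). Kpna4, the closest relative of Kpna3, had log2 fold changes of −0.12 at the low dose and −0.02 at the high dose, neither of which passed (limma adjusted p = 0.228 and 0.835). Kpna2rt, a retrotransposed copy of Kpna2, stood at 0.418 to 1.08 FPKM at the low dose and 0.769 to 0.906 FPKM at the high dose, against 1.31 to 1.88 FPKM with vehicle. Kpna2rt passed the expression filter only through its vehicle values, so the filter itself favoured a lower call. Its sequence is close to that of Kpna2, so how reads were shared between them is uncertain. With 1 library left out, its call was lost at the low dose in 3 of 9 fits (without low-dose sample 3, or vehicle sample 1 or 2; limma adjusted p = 0.0541 to 0.0564) and at the high dose in 4 of 9 fits (without high-dose sample 2 or 3, or vehicle sample 1 or 2; limma adjusted p = 0.0565 to 0.0894). Kpna7 had 7 reads in the 9 libraries together.

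The mix of adaptors differed between digoxin and vehicle samples. Kpna2 made up 51.5% ± 0.24 of the summed importin alpha FPKM at the low dose and 51.3% ± 1.19 at the high dose, against 56.8% ± 1.64 with vehicle (SD, n = 3 each). Kpna4 made up 11.2% ± 0.95 at the low dose and 11.3% ± 0.19 at the high dose, against 8.6% ± 0.60 with vehicle. The values of both shares in the digoxin samples did not overlap those with vehicle. The summed FPKM itself was 105, 108 and 105 at the low dose and 115, 108 and 115 at the high dose, against 155, 146 and 149 with vehicle. The ratio of Kpna1 to Kpna6 FPKM overlapped vehicle at the low dose, with 0.59, 0.519 and 0.533 at the low dose and 0.63, 0.607 and 0.657 at the high dose, against 0.515, 0.537 and 0.497 with vehicle. That of Kpna3 to Kpna4 was 1.69, 1.88 and 1.86 at the low dose and 1.74, 1.9 and 1.81 at the high dose, below the vehicle ratios of 2.2, 2.08 and 2.08.

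Of the 10 importin beta family genes, including the transportins, 9 fell at both doses. Kpnb1 had 59.2, 71.1 and 56.7 FPKM at the low dose and 68.2, 61.0 and 59.8 FPKM at the high dose, against 93.6, 95.2 and 94.8 FPKM with vehicle. Kpnb1 encodes importin beta itself, the carrier that takes adaptor and cargo through the pore. Its vehicle samples lay within a narrow band and all 6 digoxin values lay well below it, with log2 fold changes of −0.60 (SE 0.10, limma adjusted p = 0.00248) at the low dose and −0.58 (SE 0.10, limma adjusted p = 0.00233) at the high dose. Ipo9 had 17.6, 18.8 and 16.8 FPKM at the low dose and 16.6, 16.4 and 17.2 FPKM at the high dose, against 23.7, 23.9 and 23.0 FPKM with vehicle. Ipo9, an importer of histones and actin, did not overlap vehicle at either dose, with log2 fold changes of −0.39 (SE 0.07, limma adjusted p = 0.00323) at the low dose and −0.47 (SE 0.07, limma adjusted p = 0.00139) at the high dose. Ipo11 had 4.33, 5.36 and 3.84 FPKM at the low dose and 3.56, 3.88 and 4.31 FPKM at the high dose, against 6.21, 6.58 and 6.57 FPKM with vehicle. The digoxin values of Ipo11 were likewise all below vehicle, with log2 fold changes of −0.44 (SE 0.11, limma adjusted p = 0.0148) at the low dose and −0.60 (SE 0.11, limma adjusted p = 0.00385) at the high dose. The call of Ipo11 at the low dose was lost with 1 library left out in 3 of 9 fits (without low-dose sample 3, or vehicle sample 2 or 3; limma adjusted p = 0.0533 to 0.0561).

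Ipo5 and Ipo7, which import ribosomal proteins among other cargo, had log2 fold changes of −0.47 at the low dose and −0.40 at the high dose for Ipo5 and of −0.70 at the low dose and −0.53 at the high dose for Ipo7. Ipo8, the close relative of Ipo7, had −0.34 at the low dose and −0.41 at the high dose. Tnpo1, the carrier of hnRNP proteins with a PY signal, showed the lowest value of the family, −0.76 at the low dose and −0.86 at the high dose. Its relative Tnpo2 had −0.33 at the low dose and −0.39 at the high dose, and Tnpo3, the importer of SR splicing factors, had −0.31 at the low dose and −0.24 at the high dose. All of these passed at both doses. The ratio of Tnpo1 to Tnpo2 FPKM was 0.635, 0.846 and 0.65 at the low dose and 0.676, 0.687 and 0.677 at the high dose, below the vehicle ratios of 0.885, 1.05 and 0.97. The ratio of Ipo7 to Ipo8 FPKM was 4.27, 4.06 and 3.82 at the low dose and 6.39, 4.6 and 4.03 at the high dose, against 4.84, 5.48 and 4.76 with vehicle, so it lay below vehicle at the low dose and overlapped it at the high dose. With 1 library left out, the call of Ipo8 was lost at the low dose in 4 of 9 fits (without low-dose sample 1 or 3, or vehicle sample 2 or 3; limma adjusted p = 0.0639 to 0.0941). That of Ipo7 was lost at the high dose in 4 of 9 fits (without high-dose sample 2 or 3, or vehicle sample 2 or 3; limma adjusted p = 0.0599 to 0.067). Those of Tnpo2 were lost at the low dose in 5 of 9 fits (without low-dose sample 1 or 3, or vehicle sample 1, 2 or 3; limma adjusted p = 0.0596 to 0.0981) and at the high dose in 2 of 9 fits (without high-dose sample 3, or vehicle sample 3; limma adjusted p = 0.0517 to 0.0523). Those of Tnpo3 were lost at the low dose in 2 of 9 fits (without vehicle sample 2 or 3; limma adjusted p = 0.0578 to 0.0587) and at the high dose in 7 of 9 fits (without low-dose sample 1 or 3, or high-dose sample 1, 2 or 3, or vehicle sample 2 or 3; limma adjusted p = 0.0504 to 0.124).

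Ipo4, an importer of histones and ribosomal proteins, was the exception in this family. Ipo4 had 19.4, 20.1 and 21.1 FPKM at the low dose and 18.3, 18.1 and 18.8 FPKM at the high dose, against 16.8, 17.6 and 16.3 FPKM with vehicle. All 6 digoxin values lay above all vehicle values, with log2 fold changes of 0.25 (SE 0.07, limma adjusted p = 0.0174) at the low dose and 0.12 (SE 0.07, limma adjusted p = 0.16) at the high dose, of which only that at the low dose passed. That call was lost with 1 library left out in 2 of 9 fits (without low-dose sample 3, or vehicle sample 3; limma adjusted p = 0.0668 to 0.0728), and with rescaling to TPM.

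Of the exportins, with the bidirectional carrier Ipo13 counted among them, 6 of 7 fell at both doses. Xpo5 had 12.0, 15.0 and 11.8 FPKM at the low dose and 13.2, 11.7 and 12.2 FPKM at the high dose, against 22.7, 22.7 and 22.7 FPKM with vehicle. Xpo5 exports precursor microRNAs, and its vehicle values were equal to the printed digit while every digoxin value lay at or below 15.0 FPKM. Its log2 fold changes were −0.78 (SE 0.10, limma adjusted p = 0.00104) at the low dose and −0.83 (SE 0.10, limma adjusted p = 0.000697) at the high dose. Xpot had 16.8, 17.1 and 15.4 FPKM at the low dose and 18.8, 13.7 and 15.2 FPKM at the high dose, against 27.2, 28.0 and 31.8 FPKM with vehicle. Xpot, the exportin of transfer RNA, did not overlap vehicle, with log2 fold changes of −0.78 (SE 0.12, limma adjusted p = 0.00196) at the low dose and −0.84 (SE 0.12, limma adjusted p = 0.00124) at the high dose. Ipo13 had 17.5, 18.3 and 18.5 FPKM at the low dose and 14.4, 16.8 and 16.4 FPKM at the high dose, against 25.3, 23.7 and 23.4 FPKM with vehicle. Ipo13, which imports some cargo and exports other cargo, had log2 fold changes of −0.40 (SE 0.08, limma adjusted p = 0.00513) at the low dose and −0.58 (SE 0.08, limma adjusted p = 0.00106) at the high dose, with no overlap with vehicle.

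Xpo1 (CRM1) is the general exporter of proteins with a leucine-rich export signal and the most abundant of the exportins here. Xpo1 had 27.4, 26.7 and 26.5 FPKM at the low dose and 31.1, 28.2 and 29.2 FPKM at the high dose, against 32.6, 34.2 and 35.6 FPKM with vehicle. The digoxin values were all below vehicle, but the log2 fold changes were smaller than those of Xpo5, at −0.33 (SE 0.07, limma adjusted p = 0.00611) at the low dose and −0.20 (SE 0.07, limma adjusted p = 0.0353) at the high dose. The ratio of Xpo1 to Xpo5 FPKM was 2.29, 1.78 and 2.24 at the low dose and 2.37, 2.42 and 2.39 at the high dose, above the vehicle ratios of 1.43, 1.51 and 1.57. The call of Xpo1 at the high dose was lost when the samples were scaled to equal medians (limma adjusted p = 0.0775), and with 1 library left out in 4 of 9 fits (without high-dose sample 2 or 3, or vehicle sample 2 or 3; limma adjusted p = 0.0991 to 0.13). Xpo4, which exports the translation factor eIF5A, fell at both doses with log2 fold changes of −0.67 at the low dose and −0.67 at the high dose, and Xpo7, a carrier with broad cargo, did so with −0.42 at the low dose and −0.34 at the high dose. Xpo6, the exporter of actin with profilin, had −0.03 at the low dose and 0.09 at the high dose and passed at neither dose (limma adjusted p = 0.762 and 0.4).

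In the pore itself, 17 of 26 tested components fell at the low dose and 14 of 26 at the high dose, beside 20 and 19 of 23 transport receptors; the difference between these classes was not tested. The outer ring, or Y complex, coats both faces of the pore. Of the 8 genes assigned to it here, which may not be all of its genes, 6 fell at the low dose and 5 at the high dose. Nup107 had 12.5, 14.7 and 13.4 FPKM at the low dose and 12.8, 12.0 and 12.8 FPKM at the high dose, against 19.3, 18.7 and 22.2 FPKM with vehicle. Nup85 had 31.0, 35.8 and 30.4 FPKM at the low dose and 34.1, 31.8 and 34.8 FPKM at the high dose, against 47.5, 46.0 and 46.6 FPKM with vehicle. Nup37 had 8.27, 10.7 and 8.0 FPKM at the low dose and 8.51, 7.61 and 8.35 FPKM at the high dose, against 13.5, 13.7 and 15.4 FPKM with vehicle. For these 3 scaffold genes no digoxin value reached the lowest vehicle value. The log2 fold changes of Nup107 were −0.54 (SE 0.09, limma adjusted p = 0.00294) at the low dose and −0.64 (SE 0.09, limma adjusted p = 0.00128) at the high dose. Those of Nup85 were −0.52 (SE 0.08, limma adjusted p = 0.00211) at the low dose and −0.47 (SE 0.08, limma adjusted p = 0.00254) at the high dose. Those of Nup37 were −0.61 (SE 0.11, limma adjusted p = 0.00411) at the low dose and −0.73 (SE 0.11, limma adjusted p = 0.00178) at the high dose.

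The other genes assigned to the Y complex were more mixed. Nup160 and Nup43 fell at both doses, with log2 fold changes of −0.36 at the low dose and −0.40 at the high dose for Nup160 and −0.27 at the low dose and −0.22 at the high dose for Nup43. Leaving out 1 library lost the call of Nup160 at the low dose in 4 of 9 fits (without low-dose sample 1 or 3, or vehicle sample 2 or 3; limma adjusted p = 0.0709 to 0.0854) and at the high dose in 2 of 9 fits (without vehicle sample 2 or 3; limma adjusted p = 0.0521 to 0.0566). It lost that of Nup43 at the low dose in 4 of 9 fits (without low-dose sample 1 or 3, or vehicle sample 1 or 3; limma adjusted p = 0.057 to 0.0829) and at the high dose in 7 of 9 fits (without low-dose sample 3, or high-dose sample 1, 2 or 3, or vehicle sample 1, 2 or 3; limma adjusted p = 0.0511 to 0.13), and scaling to equal medians also lost the call of Nup43 at the high dose (limma adjusted p = 0.0516). Seh1l, which also serves in the GATOR complex of nutrient sensing, had 20.7, 22.6 and 15.6 FPKM at the low dose and 26.0, 24.6 and 24.7 FPKM at the high dose, against 25.2, 25.3 and 25.4 FPKM with vehicle. It was called lower at the low dose only (log2 −0.37, SE 0.12, limma adjusted p = 0.0365), a call lost with 1 library left out in 6 of 9 fits (without low-dose sample 1 or 3, or high-dose sample 3, or vehicle sample 1, 2 or 3; limma adjusted p = 0.0534 to 0.0966). Between the doses its log2 difference, high minus low dose, was 0.36 (SE 0.12, limma adjusted p = 0.256). Nup133 had log2 fold changes of −0.20 at the low dose and −0.11 at the high dose, and Sec13, shared with the COPII coat of secretory vesicles, had 0.02 at the low dose and −0.17 at the high dose. None of these passed.

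The inner ring anchors the pore, and 3 of its 5 genes fell at both doses. Nup188 had 13.2, 17.1 and 12.4 FPKM at the low dose and 16.2, 12.4 and 13.0 FPKM at the high dose, against 24.2, 23.0 and 22.9 FPKM with vehicle. Nup205 had 11.2, 14.0 and 11.2 FPKM at the low dose and 14.1, 11.4 and 12.2 FPKM at the high dose, against 17.1, 19.1 and 19.4 FPKM with vehicle. Nup93 had 17.3, 18.2 and 16.9 FPKM at the low dose and 17.4, 17.2 and 16.7 FPKM at the high dose, against 23.9, 22.2 and 21.6 FPKM with vehicle. In each of them all digoxin values lay below all vehicle values. Nup188 and Nup205 are related large scaffold proteins that bind Nup93. The log2 fold changes of Nup188 were −0.69 (SE 0.13, limma adjusted p = 0.00491) at the low dose and −0.72 (SE 0.13, limma adjusted p = 0.00345) at the high dose. They were −0.58 (SE 0.11, limma adjusted p = 0.00505) at the low dose and −0.53 (SE 0.11, limma adjusted p = 0.00618) at the high dose for Nup205. They were −0.35 (SE 0.07, limma adjusted p = 0.00504) at the low dose and −0.38 (SE 0.07, limma adjusted p = 0.0031) at the high dose for Nup93. The inner ring genes Nup155, with 0.04 at the low dose and 0.11 at the high dose, and Nup35, with −0.21 at the low dose and −0.17 at the high dose, passed at neither dose.

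The central channel proteins carry the phenylalanine-glycine repeats that form the transport barrier, and the partners there did not share a pattern. Nup54 had 14.1, 14.7 and 11.7 FPKM at the low dose and 17.8, 12.4 and 13.4 FPKM at the high dose, against 21.5, 21.4 and 21.7 FPKM with vehicle. No digoxin value overlapped vehicle, with log2 fold changes of −0.64 (SE 0.13, limma adjusted p = 0.00656) at the low dose and −0.55 (SE 0.13, limma adjusted p = 0.0105) at the high dose. Nup62 had 45.4, 36.6 and 45.2 FPKM at the low dose and 58.8, 42.2 and 45.9 FPKM at the high dose, against 51.1, 46.0 and 46.9 FPKM with vehicle. All 3 values of Nup62 at the low dose lay below vehicle, samples 1 and 3 narrowly and sample 2 at 76.2% of the vehicle mean, and those at the high dose spanned vehicle, with log2 fold changes of −0.18 (SE 0.13, limma adjusted p = 0.293) at the low dose and 0.02 (SE 0.13, limma adjusted p = 0.931) at the high dose. Nup58, the remaining subunit of this complex, was listed at or near 0, with 3 reads in the 9 libraries together. In the GENCODE mouse annotation Nup62 overlaps Il4i1 on the same strand, which had 0.0142 to 0.0962 FPKM over the 9 samples. On the other strand it overlaps Atf5, which had 37.6 to 53.1 FPKM at the low dose and 35.2 to 44.2 FPKM at the high dose, against 28.0 to 35.8 FPKM with vehicle. Since the use of strand is not given in the sources used here, reads of Nup62 and Atf5 may be mixed.

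In the membrane ring, which holds the pore in the envelope, both tested genes fell at the low dose. Pom121 had 13.8, 12.4 and 11.7 FPKM at the low dose and 18.7, 14.8 and 16.1 FPKM at the high dose, against 20.8, 21.0 and 22.6 FPKM with vehicle. Its values at the high dose lay between those of the other groups without overlapping either. The log2 fold changes were −0.72 (SE 0.10, limma adjusted p = 0.0014) at the low dose and −0.36 (SE 0.10, limma adjusted p = 0.0169) at the high dose, and the difference between the doses was 0.36 (SE 0.10, limma adjusted p = 0.19). The call at the high dose was lost with 1 library left out in 3 of 9 fits (without high-dose sample 2 or 3, or vehicle sample 3; limma adjusted p = 0.0554 to 0.0667). Ndc1 had 10.4, 11.1 and 9.4 FPKM at the low dose and 11.7, 9.7 and 10.9 FPKM at the high dose, against 13.0, 12.8 and 12.5 FPKM with vehicle. All digoxin values of Ndc1 were below vehicle, with log2 fold changes of −0.29 (SE 0.09, limma adjusted p = 0.0292) at the low dose and −0.23 (SE 0.09, limma adjusted p = 0.0603) at the high dose, and the call at the low dose was lost with 1 library left out in 5 of 9 fits (without low-dose sample 1 or 3, or vehicle sample 1, 2 or 3; limma adjusted p = 0.0704 to 0.106).

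Nup210, a membrane nucleoporin below the expression filter, had 0.967, 0.792 and 0.937 FPKM at the low dose and 0.289, 0.374 and 0.467 FPKM at the high dose, against 0.903, 1.12 and 1.14 FPKM with vehicle. The high-dose values lay below those of both other groups. In a limma fit without the filter its log2 fold change was −0.58 at the high dose (SE 0.12, adjusted p = 0.0148) and −0.11 at the low dose (SE 0.12, adjusted p = 0.601). The difference between the doses did not pass in that fit (−0.46, SE 0.12, limma adjusted p = 0.264). Its relative Nup210l ranged over 0.75 to 1.13 FPKM at the low dose and 0.707 to 0.89 FPKM at the high dose, against 0.624 to 0.733 FPKM with vehicle.

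The nuclear basket extends from the inner face. Nup153 had 10.8, 12.8 and 8.6 FPKM at the low dose and 13.2, 9.91 and 10.6 FPKM at the high dose, against 15.7, 18.7 and 18.0 FPKM with vehicle. Nup153, which tethers the basket, was below vehicle in all 6 digoxin samples, with log2 fold changes of −0.67 (SE 0.15, limma adjusted p = 0.00916) at the low dose and −0.60 (SE 0.15, limma adjusted p = 0.0123) at the high dose. Tpr had 19.3, 19.7 and 17.8 FPKM at the low dose and 20.0, 19.1 and 18.8 FPKM at the high dose, against 20.4, 24.8 and 22.7 FPKM with vehicle. The digoxin values of Tpr, the fibre protein of the basket, lay below vehicle at both doses with log2 fold changes of −0.24 (SE 0.08, limma adjusted p = 0.0454) at the low dose and −0.22 (SE 0.08, limma adjusted p = 0.0641) at the high dose. Its call at the low dose was lost with 1 library left out in 6 of 9 fits (without low-dose sample 1 or 3, or high-dose sample 2 or 3, or vehicle sample 2 or 3; limma adjusted p = 0.0624 to 0.164). Nup50 had 20.8, 20.1 and 21.9 FPKM at the low dose and 22.9, 22.2 and 22.4 FPKM at the high dose, against 21.9, 19.8 and 19.5 FPKM with vehicle. Nup50, a mobile cofactor of importin alpha, had log2 fold changes of 0.04 (SE 0.07, limma adjusted p = 0.699) at the low dose and 0.14 (SE 0.07, limma adjusted p = 0.138) at the high dose, and its values at the high dose lay above vehicle without passing the test. Nup50l had 1 read in all.

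On the cytoplasmic side, 3 of 6 genes fell at both doses and Rae1 rose. Nup214 had 5.11, 4.68 and 4.74 FPKM at the low dose and 5.49, 4.91 and 5.18 FPKM at the high dose, against 6.95, 7.18 and 6.86 FPKM with vehicle. Nup88 had 12.0, 13.1 and 11.8 FPKM at the low dose and 14.0, 13.4 and 13.7 FPKM at the high dose, against 15.8, 16.8 and 17.0 FPKM with vehicle. These partners, which dock the RNA export helicase and Xpo1, showed no overlap with vehicle. The log2 fold changes of Nup214 were −0.45 (SE 0.07, limma adjusted p = 0.00287) at the low dose and −0.37 (SE 0.07, limma adjusted p = 0.00518) at the high dose. Those of Nup88 were −0.40 (SE 0.07, limma adjusted p = 0.00358) at the low dose and −0.25 (SE 0.07, limma adjusted p = 0.0178) at the high dose, and the Nup88 call at the high dose was lost with 1 library left out in 4 of 9 fits (without high-dose sample 2 or 3, or vehicle sample 2 or 3; limma adjusted p = 0.0537 to 0.0713). Ranbp2, the giant filament protein that binds Ran and SUMO-modified Rangap1, had log2 fold changes of −0.32 at the low dose and −0.32 at the high dose, both called lower. Leaving out 1 library lost its call at the low dose in 7 of 9 fits (without low-dose sample 1, 2 or 3, or high-dose sample 2 or 3, or vehicle sample 2 or 3; limma adjusted p = 0.0501 to 0.125) and at the high dose in 5 of 9 fits (without low-dose sample 3, or high-dose sample 2 or 3, or vehicle sample 2 or 3; limma adjusted p = 0.05 to 0.126).

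Rae1 encodes an mRNA export factor that docks on Nup98. Rae1 had 55.1, 47.7 and 52.5 FPKM at the low dose and 53.5, 56.1 and 59.5 FPKM at the high dose, against 41.7, 38.8 and 38.0 FPKM with vehicle. Every digoxin value lay above every vehicle value, with log2 fold changes of 0.38 (SE 0.08, limma adjusted p = 0.0069) at the low dose and 0.50 (SE 0.08, limma adjusted p = 0.00204) at the high dose. Both calls were kept in all 9 fits that left out 1 library. Nup98 itself had log2 fold changes of −0.03 at the low dose and 0.08 at the high dose and passed at neither dose (limma adjusted p = 0.777 and 0.402). The ratio of Nup98 to Rae1 FPKM was 0.146, 0.148 and 0.154 at the low dose and 0.162, 0.147 and 0.141 at the high dose, below the vehicle ratios of 0.183, 0.208 and 0.212. Aaas, the gene of the WD-repeat nucleoporin aladin, had 0.05 at the low dose and 0.04 at the high dose, and neither passed.

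Genes that work beside the pore were counted in the same way. Of 19 tested accessory transport factors, limma called 7 lower and 0 higher at the low dose (0 higher also at an unadjusted p under 0.05 and by limma-voom), and 7 lower and 1 higher at the high dose. The lower share was 36.8% at each dose, against 20.7% of all tested genes at the low dose and 25.2% at the high dose. Cse1l, which returns importin alpha to the cytoplasm, had 18.4 to 20.6 FPKM at the low dose and 19.6 to 22.0 FPKM at the high dose, against 26.4 to 26.7 FPKM with vehicle (log2 −0.41 and −0.32). Nutf2, which carries Ran-GDP back into the nucleus, had log2 fold changes of −0.32 and −0.60. Ddx19a, a helicase of mRNA release, had −0.57 and −0.45, and the cap-binding gene Ncbp2 had −0.42 and −0.64, all 4 genes passing at both doses. The median over this list was −0.14 at the low dose and −0.20 at the high dose.

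Of 20 mRNA export genes, 5 were lower (25%) and 4 higher (20%) at the low dose, and 6 lower (30%) and 3 higher (15%) at the high dose. These shares are near those of all tested genes, of which 20.7% were lower and 21.6% higher at the low dose, and 25.2% lower and 20.7% higher at the high dose. Alyref, an adaptor that loads mRNA for export, had 14.5 to 23.0 FPKM at the low dose and 14.1 to 19.2 FPKM at the high dose, against 31.9 to 37.3 FPKM with vehicle (log2 −0.91 and −1.05). The THO complex genes Thoc3 (−0.48 and −0.62) and Thoc5 (−0.43 and −0.53) and the export scaffold gene Mcm3ap (−0.42 and −0.44) also fell at both doses. Chtop was called lower at both as well (−0.31 and −0.35). Of the other THO genes in the list, Thoc1, Thoc2, Thoc6 and Thoc7 passed at neither dose. The export receptor gene Nxf1 rose at both doses (0.35 and 0.40), as did Nxt2 (0.65 and 0.80) and Alyref2 (0.69 and 0.65). These were named after their values were seen. With vehicle, Nxt2 had 0.744 to 1.06 FPKM and Alyref2 had 0.83 to 1.27 FPKM. Both passed the expression filter only through their digoxin values, so the filter itself favoured their higher calls, which are counted above. The list median was −0.16 at the low dose and −0.23 at the high dose. Of 17 lamina and envelope genes, 5 were lower and 1 higher at the low dose, and 5 lower and 2 higher at the high dose. The lower share of 29.4% at each dose stands beside 20.7% and 25.2% of all tested genes, and beside 23.8% and 28% of those that averaged at least 5 FPKM. Tmpo (−0.72 and −0.84), Lbr (−0.63 and −0.44) and the lamin gene Lmnb1 (−0.37 and −0.29) fell, and Sun2, a linker of nucleus and cytoskeleton, rose (0.57 and 0.65). Their list median was −0.20 at the low dose and −0.03 at the high dose.

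Genes of proliferating cells were set beside these. Of 21, 12 were lower and 3 higher at the low dose, and 9 lower and 3 higher at the high dose, with list medians of −0.29 and −0.22. The lower shares of 57.1% and 42.9% compare with 20.7% and 25.2% of all tested genes. Top2a had 29.5 to 30.6 FPKM at the low dose and 33.8 to 34.5 FPKM at the high dose, against 44.9 to 49.3 FPKM with vehicle (log2 −0.62 and −0.43), and Rrm1 (−0.38 and −0.46) and Tyms (−0.45 and −0.61) fell as well. Aurka rose (0.52 and 0.76). Mki67 had log2 fold changes of −0.09 (SE 0.12, limma adjusted p = 0.582) and −0.22 (SE 0.12, limma adjusted p = 0.177). Their part in the lower transport genes was not tested.

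**Figure D4:**
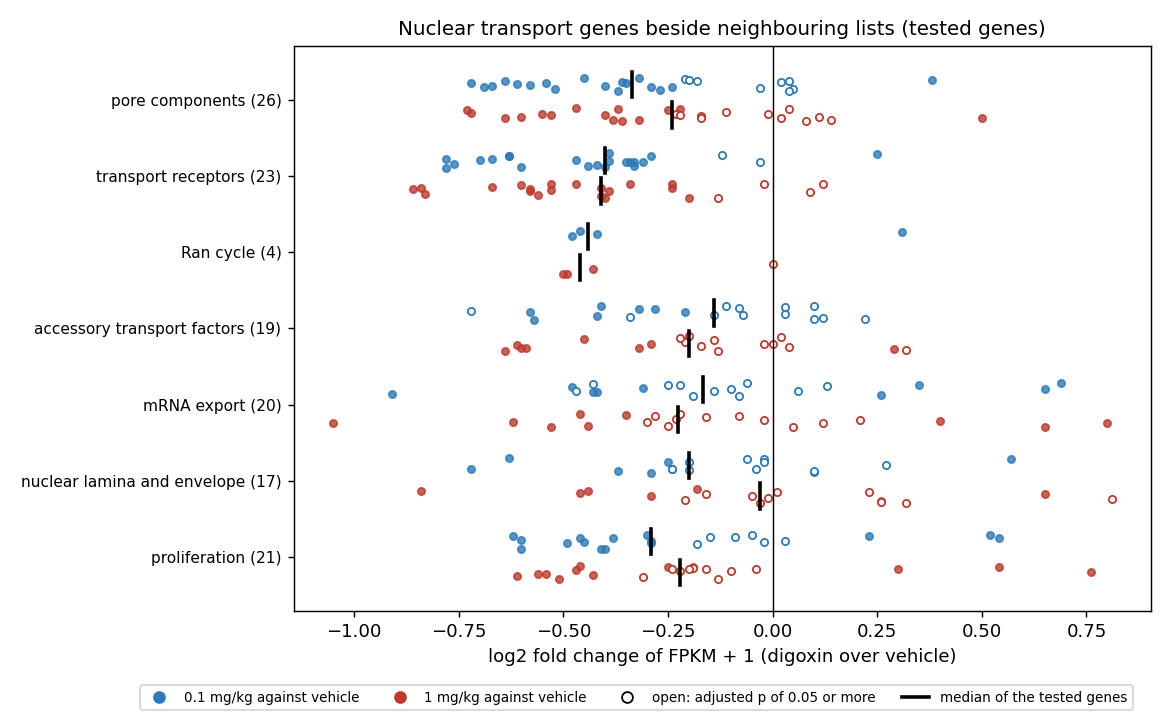
Log2 fold change of FPKM + 1 of each tested gene in 3 classes of transport genes and 4 neighbouring lists, blue for 0.1 mg/kg and red for 1 mg/kg against vehicle, with filled points for a limma adjusted p under 0.05 and a bar at the median. The medians of the transport receptors are −0.40 at the low dose and −0.41 at the high dose, those of the pore components −0.34 and −0.24, and those of the mRNA export genes −0.16 and −0.23.

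Some markers of other cells in the tumours also differed with treatment. Of all tested genes, 21.6% were called higher and 20.7% lower at the low dose, and 20.7% higher and 25.2% lower at the high dose. All 5 tested T cell markers were higher at the low dose and 0 were called at the high dose by limma (0 also at an unadjusted p under 0.05 and 0 by limma-voom). Between the doses limma called 0 of these 5 markers (smallest adjusted p = 0.0953), although all 5 had an unadjusted p under 0.05. Their summed FPKM was 28.2 to 48.6 at the low dose and 6.65 to 20.2 at the high dose, against 12.9 to 15.4 with vehicle. Of 6 macrophage markers, 4 were higher at the low dose, and 3 were higher and 2 lower at the high dose, with sums of 864 to 1260.2 FPKM at the low dose and 562 to 853 FPKM at the high dose against 620.4 to 674 FPKM with vehicle. Of 5 neutrophil markers, 3 were higher at the low dose and 4 at the high dose. Their sums were 114 to 646 FPKM at the low dose and 431 to 955 FPKM at the high dose, against 46.7 to 161 FPKM with vehicle. Both counts include Ly6g, at 0 to 0.458 FPKM with vehicle, which passed the expression filter only through its digoxin values.

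Of 6 fibroblast markers, 2 were lower and 2 higher at the low dose (33.3% each), and 3 lower (50%) and 1 higher (16.7%) at the high dose. Their sums were 201 to 295 FPKM at the low dose and 219 to 284 FPKM at the high dose, against 384 to 406 FPKM with vehicle. Of 5 tested muscle markers 1 was higher at each dose (20%), near the 21.6% and 20.7% of all tested genes. The muscle sums were 127 to 265 FPKM at the low dose and 40.5 to 882 FPKM at the high dose, against 28.5 to 94.6 FPKM with vehicle. Limma-voom called 0 muscle markers at either dose, 2 neutrophil markers higher at the low dose in place of 3, and 3 fibroblast markers lower at the low dose in place of 2. No endothelial and no red blood cell marker passed in limma (at an unadjusted p under 0.05, 0 of 5 endothelial and 2 of 3 red blood cell markers at each dose). Limma-voom on recovered reads also called 0 of each. The part of these cells in the values of the transport genes was not tested.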

How the data were processed

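Poly(A) RNA of 9 tumour samples in 3 groups of 3 was sequenced as 150 bp read pairs, per the labels. The authors deposited 1 table of FPKM values for 35321 genes, 1 column per sample. The submitters' processing notes list fastp 0.22.0, HISAT2 2.2.1 and GRCh38, which is a human build although the gene symbols are murine. No coordinates were therefore taken from the files, and the sources used here name neither the read counter nor its annotation or use of strand. Ipo4, Kpna7, Nup133, Nup188, Nup214, Nup35, Nup43, Nup62, Nup88, Pom121, Ranbp1, Rangap1, Tnpo3, Tpr, Xpo4 and Xpo7 overlap another gene in the GENCODE mouse annotation, so their reads may be shared. Some neighbours on the other strand also fell at both doses: Zc3h7b at Rangap1 (log2 −0.49 and −0.51), Nsun5 at Pom121 (−0.59 and −0.56), Rabep1 at Nup88 (−0.41 and −0.44) and Prg4 at Tpr (−1.33 and −1.33). Odr4 at Tpr (0.43 and 0.34) and Irf5 at Tnpo3 (0.60 and 0.43) rose at both. The part of shared reads in the members' values was not tested.

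The deposited FPKM values were put on the scale log2(FPKM + 1). Genes that reached 1 FPKM in 3 or more of the 9 samples were tested with limma 3.58.1 in R 4.3.3: 1 fit of all 9 samples, no replicate block, a mean-variance trend, moderated two-sided tests and Benjamini-Hochberg adjustment over 13687 genes at 0.05, for 3 contrasts. Calls, medians and shares of the members were read from that fit. Whole reads were recovered from the spacing of the FPKM values: 99.86% of tested genes and 58 of 58 members came out whole in every sample within 0.03 reads. Recovered reads gave the depths and a limma-voom alternative, in which 2998 genes were higher and 2989 lower at the low dose and 2797 higher and 3502 lower at the high dose. Depths are denominators of the FPKM values, and counts cover counting error only.

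Members, roles and lists were chosen with earlier results of these data known. Within each role, the 3 genes with the smallest unadjusted p against vehicle and the gene with the highest mean FPKM were given per sample, and the others by fold change. Ipo4, Seh1l and Nup210 were also given per sample, outside this rule. Of each list up to 4 genes with the smallest unadjusted p were named, with Mki67, Krt8 and Krt18. In the mRNA export list, Chtop, Nxf1, Nxt2, Alyref2, Thoc1, Thoc2, Thoc6 and Thoc7 were named outside this rule. The ratios of paired genes were chosen after their values were seen. Promoters came from RefSeq on GRCm38.p6. On simulated data of 13687 genes the limma step recovered 89% of genes changed by log2 1 and 100% of those changed by log2 2 at the low dose against vehicle, with 12 false among 201 calls, and 88% and 99% at the high dose against vehicle, with 9 false among 196. Recovery of changes smaller than log2 1, which all tested members had against vehicle, was not tested. The fit of the data called 5781 genes at the low dose and 6277 at the high dose against vehicle. The share of false calls at such numbers was not tested. Python 3.11.15 with pandas 2.3.3, NumPy 2.4.6, SciPy 1.17.1 and matplotlib 3.10.9 did the rest.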

Additional observations from a re-analysis of the deposited data

How the results depend on the processing

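No called member changed direction under the alternatives run: pseudocounts of 0.1 and 0.01, no filter, a mean of at least 5 FPKM, quantile normalisation, rescaling to TPM, equal medians, no trend, robust empirical Bayes, a fit of just 2 groups, a replicate block, stricter thresholds, single libraries left out and, chosen after seeing the data, both intermediate libraries left out and limma-voom on recovered reads. Under an adjusted p of 0.01, 25 members were lower and 1 higher at the low dose, and 21 were lower and 1 higher at the high dose. The share of all tested genes at that threshold was not counted, so these counts have no background beside them. With an adjusted p under 0.05 and at least a 2-fold difference, 0 members passed in any direction at either dose. Rescaling to TPM left 1 member higher at the low dose in place of 3. It moved the median of all tested genes to −0.089 at the low dose and −0.125 at the high dose, and gave 2368 higher and 3790 lower genes and 2447 higher and 4173 lower, against 2952 and 2829 and 2833 and 3444 as deposited. Quantile normalisation gave 2403 higher and 3552 lower, and 2610 higher and 3761 lower.

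Leaving out 1 library gave 27 to 40 members lower and 1 to 3 higher at the low dose (1 higher without low-dose sample 3 or without vehicle sample 3), and 25 to 37 lower and 1 to 1 higher at the high dose. Lower calls over all tested genes ranged from 1611 (without low-dose sample 3) to 3393 (without low-dose sample 2) at the low dose, against 2829 with every library. At the high dose they ranged from 2241 (without vehicle sample 3) to 3727 (without low-dose sample 2), against 3444 with every library. Of the called members, 27 of 43 at the low dose and 24 of 37 at the high dose kept their call in all 9 such fits. The cause was not tested. Limma-voom gave 40 lower and 3 higher at the low dose and 35 lower and 1 higher at the high dose. Between the doses 0 members were called under any alternative.

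With the replicate number as a block, 36 members were lower and 3 higher at the low dose, and 32 lower and 1 higher at the high dose. Of all 13687 tested genes, that fit called 2398 lower and 2569 higher at the low dose. At the high dose it called 3055 lower and 2486 higher. The labels do not say whether the numbers pair the samples. Of 9 same-numbered pairs, 3 had correlated deviations over 0.1 (r −0.44 to 0.28). In both other groups at once, 0 samples correlated best with their own number. Between the low dose and vehicle alone, each sample correlated best with its own number, though weakly (r = 0.19, 0.13 and 0.09 for samples 1, 2 and 3). A pairing of those samples is thus not excluded.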
